A study of Homo sapiens with 18 samples.

Results

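Frame-preserving cassette exons are exons that can be spliced in or left out whole without moving the reading frame, because their length is a multiple of 3. They were found from junctions alone, in the intron usage table of all 18 libraries. A cassette trio was a set of 3 introns of 1 junction cluster, the intron before the exon, the intron after it and the longer intron that joins its neighbours, each annotated in hg38 as an intron of a protein-coding gene. The exon between them had 31 to 300 nt. Of 32498 cassette trios with annotated introns, 7415 preserved the frame, and they held 6817 distinct exons of 4307 genes. Another 9967 trios had exons in the same range of lengths that shifted the frame.

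Each exon was given a skipping share, the PSI (percent spliced in) of the skipping intron divided by the sum of that PSI and the mean PSI of both flanking introns. Within the trio, a share of 0% means that only the flanking introns were used, and 100% that only the skipping intron was. Other introns of the cluster do not enter, so the same exon can have different shares in different trios. An exon of SEC31A had 7.14% and 60.4% in wildtype, the MYCN-/SNRPD3+ group. Below, kept in, left out and skipped refer to the trio given. Reads behind each intron were not given, so the depth of a value is unknown and its precision rests on the spread between libraries. Means are given ± SD over the n = 3 libraries of a group, or over n = 6 where MYCN+/SNRPD3- is given as 1 value for both siRNAs.

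The libraries came from SHEP.tet21n (SHEP21N), a human neuroblastoma cell line with a MYCN transgene that doxycycline turns off, so the study asked what MYCN and the Sm protein SNRPD3 each do to splicing. The 6 groups had 3 libraries each. Cells given 2 µg/mL doxycycline every 72 h and a control siRNA made up the MYCN-/SNRPD3+ group, called wildtype here. Doxycycline with SNRPD3 siRNA #1 or #2 gave the MYCN-/SNRPD3- groups. DMSO in place of doxycycline gave the MYCN+/SNRPD3+ group with the control siRNA, and the MYCN+/SNRPD3- groups with siRNA #1 or #2. Every group was the same line, so differences between MYCN states cannot be told apart from those of doxycycline itself. The levels of MYCN and SNRPD3 RNA were not analysed here, so repression and knockdown were not checked in these libraries.

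Cassette exons are the commonest form of alternative splicing in human cells, and those that keep the frame can add or remove a short stretch of protein without ending the coding sequence. Whether such an exon is used depends on how well its flanking splice sites are recognised by small nuclear ribonucleoproteins. Sm proteins such as SNRPD3 form the ring that packages most spliceosomal small nuclear RNAs. MYCN is a transcription factor whose amplification marks high-risk neuroblastoma.

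Several of the exons on which the results turn are short coding exons, and their reference sequences (hg38) are shown so that a reader can see the stretch that is left out. Capitals mark the exon, and lower case marks the last 20 bases of the intron before it and the first 10 bases of the intron after it. All of those shown were flanked by ag at the 3′ splice site and gt at the 5′ splice site. In FAT1, CA12, KIF23, SPAG9 and SEC31A, and in 1 of 2 trios each of ABI1 and APP, every library with MYCN had more skipping than every library without it. CD46, DMD and B4GALNT1 rose against wildtype and kept that call whichever library was left out. OPA1 and CALD1 had less skipping, and NF1 is a textbook cassette.
FAT1, chr4:186590358-186590423, - strand: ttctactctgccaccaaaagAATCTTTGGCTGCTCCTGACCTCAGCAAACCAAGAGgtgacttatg
CA12, chr15:63328088-63328150, - strand: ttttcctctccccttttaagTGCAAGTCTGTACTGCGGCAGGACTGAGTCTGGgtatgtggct
KIF23, chr15:69425262-69425333, + strand: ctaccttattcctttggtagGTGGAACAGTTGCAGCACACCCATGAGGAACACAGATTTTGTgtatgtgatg
SPAG9, chr17:50975853-50975921, - strand: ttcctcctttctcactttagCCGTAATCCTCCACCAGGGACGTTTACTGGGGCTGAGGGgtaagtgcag
ABI1, chr10:26755645-26755761, - strand: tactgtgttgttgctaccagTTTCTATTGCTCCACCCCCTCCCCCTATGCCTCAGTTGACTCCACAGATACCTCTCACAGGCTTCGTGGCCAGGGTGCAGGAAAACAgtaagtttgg
CD46, chr1:207767759-207767833, + strand: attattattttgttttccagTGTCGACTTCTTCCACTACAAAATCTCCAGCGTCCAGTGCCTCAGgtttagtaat
DMD, chrX:31177922-31177990, - strand: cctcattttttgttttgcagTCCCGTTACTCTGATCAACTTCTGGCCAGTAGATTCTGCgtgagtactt
SEC31A, chr4:82862524-82862592, - strand: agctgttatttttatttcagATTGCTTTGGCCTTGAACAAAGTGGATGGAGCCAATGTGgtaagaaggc
APP, chr21:25997350-25997436, - strand: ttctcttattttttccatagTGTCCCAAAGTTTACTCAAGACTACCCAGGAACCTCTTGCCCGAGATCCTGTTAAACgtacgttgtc
B4GALNT1, chr12:57629038-57629166, - strand: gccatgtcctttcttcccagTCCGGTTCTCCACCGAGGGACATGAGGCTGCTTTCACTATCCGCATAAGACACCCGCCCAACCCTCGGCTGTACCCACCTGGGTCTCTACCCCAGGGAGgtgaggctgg
OPA1, chr3:193626072-193626212, + strand: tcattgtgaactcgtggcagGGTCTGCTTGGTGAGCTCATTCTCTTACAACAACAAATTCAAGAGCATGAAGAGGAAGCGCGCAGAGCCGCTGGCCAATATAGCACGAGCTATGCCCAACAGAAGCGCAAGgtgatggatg
CALD1, chr7:134935668-134935775, + strand: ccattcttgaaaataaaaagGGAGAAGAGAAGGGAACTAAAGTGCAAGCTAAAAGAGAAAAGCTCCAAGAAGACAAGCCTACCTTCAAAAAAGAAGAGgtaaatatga
NF1, chr17:31252918-31253010, + strand: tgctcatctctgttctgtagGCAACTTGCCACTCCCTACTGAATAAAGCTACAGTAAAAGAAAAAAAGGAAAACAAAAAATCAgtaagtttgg

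Most of the exons were protein-coding parts of known transcripts. In GENCODE, 5088 of the 7415 trios (68.6%) held a wholly coding exon. A further 419 were partly coding, 757 were untranslated, 998 lay only in transcripts that code for no protein and 153 matched no annotated exon of the gene. The exon belonged to the canonical transcript of its gene in 4502 trios, and the skipping intron did in 1892. Of the 4577 coding exons tested, 2296 (50.2%) began at a codon boundary (GTF phase 0), 724 had phase 1 and 1557 had phase 2. In wildtype cells the median skipping share was 17.3%, with quartiles of 3.03% and 81.5%. In most trios the flanking introns were thus used more than the skipping intron, and in a smaller set the skipping intron was used more. The median SD between the 3 libraries of a group ran from 1.81 to 2.37 percentage points over the 6 groups.

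As a whole, the exons had higher skipping shares after SNRPD3 knockdown, and the highest where MYCN was also expressed. The mean skipping share over the 7415 trios was 37.6%, 37.7% and 37.4% in the wildtype libraries and 37.6%, 38.1% and 38.4% in the MYCN+/SNRPD3+ libraries. With MYCN repressed it was 39.01%, 38.4% and 38.8% for siRNA #1 and 38.3%, 38.3% and 38.9% for siRNA #2. With MYCN expressed it was 39.6%, 39.4% and 41.9% for siRNA #1 and 39.5%, 39.04% and 40.8% for siRNA #2. All 6 MYCN+/SNRPD3- libraries were above all 6 libraries with SNRPD3, and library 3 of each siRNA stood highest. The group means were 37.6% ± 0.117 (SD) for wildtype and 40.04% ± 1.06 (SD) for MYCN+/SNRPD3-. Without library 3 of both siRNAs the difference fell from 2.49 to 1.85 percentage points.

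**Figure D1:**
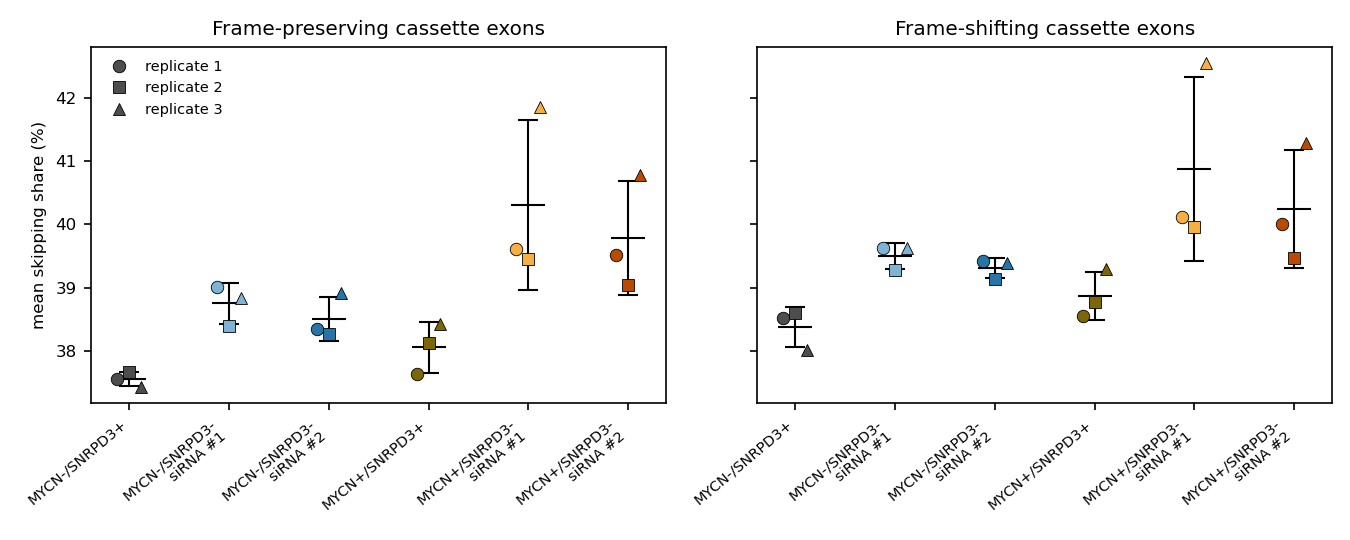
Mean skipping share (%) of each library (symbols) by group, with the group mean and SD (bars, n = 3), for the 7415 frame-preserving trios on the left and the 9967 frame-shifting trios on the right. The axis does not start at 0. The 6 MYCN+/SNRPD3- libraries are highest on the left; on the right 5 of them are, and library 2 of siRNA #2 (39.5%) is below libraries 1 and 3 of MYCN-/SNRPD3- siRNA #1 (39.6% and 39.6%). Library 3 stands above the other two in both of those groups.

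The rise was not particular to exons that keep the frame. Over the 9967 frame-shifting trios the mean went from 38.4% ± 0.316 (SD) in wildtype to 40.6% ± 1.14 (SD) in MYCN+/SNRPD3- cells, a difference of 2.19 percentage points. The median difference between MYCN+/SNRPD3- and wildtype was 1.49 percentage points over the 6702 frame-preserving trios tested and 1.56 over all 30036 trios tested. Of the frame-preserving trios, 73.2% had a higher share, and of all trios 70.8%.

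Exons at intermediate levels moved most in percentage points, a scale on which an equal change in odds moves intermediate shares most. The share of exons called in MYCN+/SNRPD3- against wildtype, a test given below, differed less between low and intermediate levels. It was 7.03% where the wildtype share was under 5%, 7.86% from 20% to 50% and 1.52% above 95%. Where the wildtype share was 20% to 50% (916 exons), the median rise was 6.80 percentage points with siRNA #1 and 5.24 with siRNA #2 in cells with MYCN, against 1.40 and 1.17 where the wildtype share was under 5% (1992 exons). Above 95% (788 exons) it was 0.112 and 0.0385. With MYCN repressed the same band had medians of 2.58 and 2.11 percentage points for siRNA #1 and #2, and MYCN alone had 1.27, again the highest of the bands in each group. All of these values share the 3 wildtype libraries, and those also set the bands.

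Single exons were then compared with limma on the log2 odds of skipping, with p-values adjusted over all 30036 trios tested, 6702 of them frame-preserving. MYCN alone (MYCN+/SNRPD3+ against wildtype) gave 1 call among the frame-preserving exons, in FAT1, against 9 calls in all trios (0.03%). At an unadjusted p under 0.05 there were 568, of which 382 had more skipping. With only the 2 groups compared in the fit there were 14 calls, and 10 of them had less skipping. Knockdown gave no call among these exons with MYCN repressed (0% of all trios), with MYCN expressed (0.0766% of all trios) or over both MYCN states (0.00999% of all trios). The counts at an unadjusted p under 0.05 were 405, 922 and 1073, with more skipping in 351, 837 and 993 of them. The interaction, which asks whether knockdown acted differently in both MYCN states, gave no call either (0.0133% of all trios). It had 245 exons at an unadjusted p under 0.05. With no difference at all, a fraction of 0.05 of the 6702 would reach such a p. The 245 are fewer than that, and the counts given above for MYCN alone and for knockdown are more. Unadjusted counts were not made over all trios, so they are not read as a result. Under the other settings tried, the counts of knockdown calls ran from 0 to 55. The highest, 55, was for knockdown over both MYCN states with the replicate number as a block in the fit. The absence of knockdown calls therefore depends on the settings. That block ended it with MYCN expressed and over both MYCN states, but not with MYCN repressed. Some settings without the block also gave a few calls.

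The comparison that changed both factors, MYCN+/SNRPD3- against wildtype, called 395 of the 6702 frame-preserving exons (5.89%), against 5.03% of all trios and 4.84% of the frame-shifting ones. More skipping was called in 375 (5.6%, against 4.74% of all trios) and less in 20 (0.298%, against 0.29%). The 395 trios were 382 distinct exons of 338 genes. Among the 375, 314 (83.7%) were wholly coding, compared with 68.3% of those tested, and 11 were untranslated. The median difference was 9.13 percentage points for the 375 and -9.53 for the 20. In 358 of the 375 all 6 MYCN+/SNRPD3- libraries lay above all 3 wildtype libraries; over all exons tested that held for 965 (14.4%, against 12.1% of all trios).

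Which libraries were used mattered for the count. It was 104, 71 and 71 without wildtype library 1, 2 or 3, 212 without library 3 of MYCN+/SNRPD3- siRNA #1, 152 without library 3 of siRNA #2 and 71 (68 with more skipping) without both. With only the 2 groups compared in the fit it was 20, and with siRNA #1 or #2 alone 257 or 48. The direction of the balance was more skipping in each of these.

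**Figure D2:**
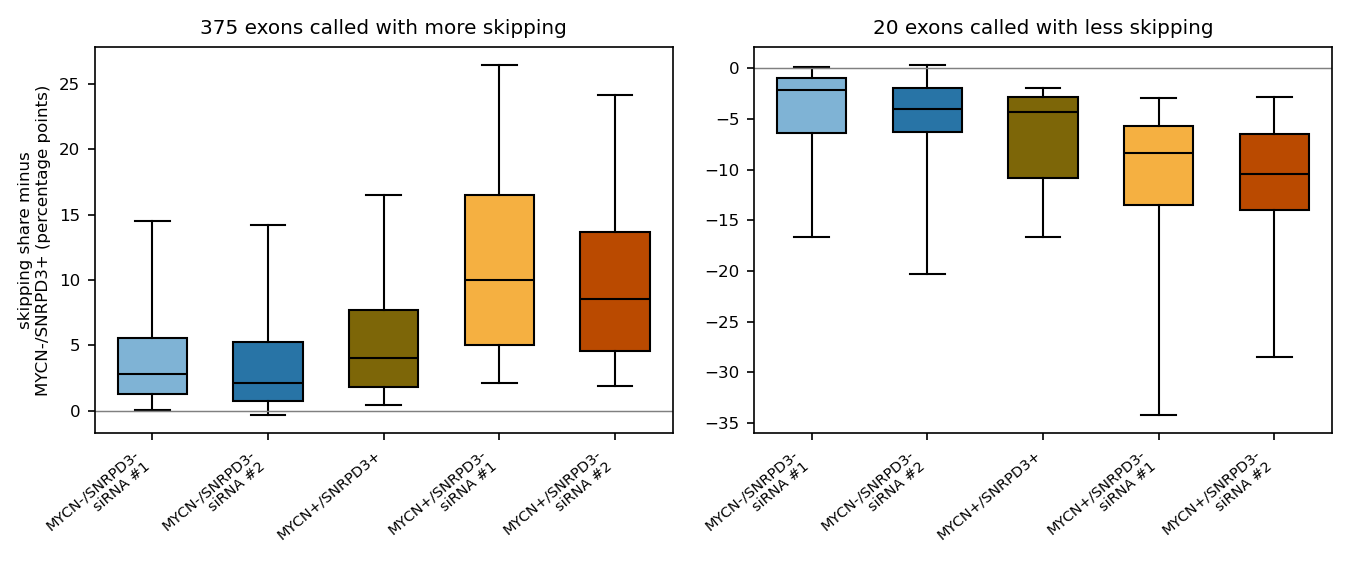
Skipping share minus that of wildtype (percentage points) for the 375 exons called with more skipping (left) and the 20 called with less (right) in MYCN+/SNRPD3- against wildtype. Boxes give the median and quartiles over exons, whiskers the 5th and 95th percentiles. The exons were chosen by the MYCN+/SNRPD3- groups, and every group is set against the same wildtype libraries. On the left the median shares are 8.39% in wildtype, 13.8% in MYCN+/SNRPD3+ and 21.3% and 18.9% in MYCN+/SNRPD3-.

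Among the frame-preserving exons, the shortest had the highest share of calls with more skipping. Over all lengths that share was 5.6%, against 4.74% of all trios. The length bands were not counted in other trios, so the order may not be particular to these exons. More skipping was called in 77 of 998 exons of 31 to 60 nt (7.72%), in 114 of 2045 of 61 to 99 nt (5.57%), in 116 of 2104 of 100 to 150 nt (5.51%) and in 68 of 1555 of 151 to 300 nt (4.37%). The flanking introns of the 375 had lower medians, 2067 nt before and 1922 nt after the exon against 2344.5 and 2330 nt in all 6702. The median GC content was 48.9% in the 375 and in all 6702, the median score of the 3′ splice site was 8.96 against 9.01, and that of the 5′ splice site 7.17 against 7.60 (log2 odds of a position matrix built from 40407 introns). Spearman's rho between the log2 odds difference and each of 7 features, over 6702 exons that share the libraries, lay between -0.0590, for length, and 0.0478, for GC content.

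Calls that held whichever library was left out were counted only among the frame-preserving exons, so no share over all trios can be set beside them. Of the 395 calls, 375 of them with more skipping, 38 held whichever of the 18 libraries was left out. All 38 had more skipping. They were 37 distinct exons of 32 genes, and 34 were wholly coding. These exons, chosen after their values were seen, are described first because no single library decides them. All 38 also held without library 3 of both MYCN+/SNRPD3- groups, and 11 held with only the compared groups in the fit.

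In several of them every MYCN+ library lay above every MYCN- library. They were chosen by a comparison that itself changed MYCN, so this separation is partly built into the choice. For MYCN alone, only FAT1 was called among the frame-preserving exons. FAT1, an atypical cadherin of cell junctions, has a 36-nt coding exon (chr4:186590368-186590403) with a skipping share of 72.6%, 68.5% and 69.5% in wildtype, 74.7%, 72.5% and 74.3% with siRNA #1 and 68.04%, 71.6% and 66.9% with siRNA #2 in cells without MYCN. With MYCN expressed the shares were 85.3%, 88.3% and 89.7% with SNRPD3, 89.9%, 90.7% and 90.5% with siRNA #1 and 83.8%, 85.8% and 81.99% with siRNA #2. Every MYCN+ library lay above every MYCN- library, whatever the state of SNRPD3. The log2 odds difference was 1.55 ± 0.20 (SE) for MYCN alone (limma adjusted p = 0.0142) and 1.4998 ± 0.17 (SE) for MYCN+/SNRPD3- against wildtype (adjusted p = 0.00494). The first of these calls was lost without wildtype library 2 or 3 or MYCN+/SNRPD3+ library 2, with adjusted p up to 0.0703, and the second was not lost.

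TERF1, which binds telomeric repeats in the shelterin complex, has a 60-nt coding exon (exon 7, chr8:73030336-73030395). Its share was 63.7%, 51.3% and 53.7% in wildtype and 75.4%, 75.2% and 75.9% in MYCN+/SNRPD3+, 58.7%, 57.6% and 57.5% and 54.6%, 55.3% and 59.8% after knockdown without MYCN, and 78.7%, 79.9% and 78.6% and 74.02%, 80.6% and 76.1% after knockdown with MYCN. Here too all 9 MYCN+ libraries were above all 9 MYCN- libraries. The log2 odds difference against wildtype was 1.42 ± 0.19 (SE) (adjusted p = 0.00494), and for MYCN alone the adjusted p was 0.130. The 33-nt exon 9 of CA12, a membrane carbonic anhydrase, went from 46.4%, 43.9% and 49.4% in wildtype to 67.2%, 63.8% and 67.6% with MYCN and to 73.5%, 67.9% and 71.2% and 68.6%, 60.04% and 64.9% with MYCN and knockdown (adjusted p = 0.00772).

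Exons of other surface and cytoskeletal proteins were called as well. In the trios of NT5E and ABI1 given here the 9 MYCN+ libraries again lay above the 9 MYCN- libraries, and in EPB41L2 they overlapped. Exon 7 of NT5E (150 nt), the ecto-nucleotidase CD73, had 13.1% ± 1.71 (SD) in wildtype, 25.6% ± 4.88 (SD) in MYCN+/SNRPD3+ and 29.04% ± 2.70 (SD) in MYCN+/SNRPD3- (adjusted p = 0.00847). Exon 9 of ABI1 (87 nt), an adaptor of the actin-regulating WAVE complex, had 19.3% ± 0.603 (SD), 31.001% ± 1.11 (SD) and 34.3% ± 5.60 (SD) in the same groups (adjusted p = 0.00789). A 54-nt exon of EPB41L2, which links membrane proteins to spectrin and actin, was already mostly left out at 86.95% ± 2.73 (SD) and reached 96.1% ± 0.543 (SD) (adjusted p = 0.00494). The other trio of the ABI1 exon, with a longer skipping intron, did not pass, at 3.29% ± 0.991 (SD) in wildtype and 5.42% ± 2.25 (SD) in MYCN+/SNRPD3- (adjusted p = 0.361).

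KIF23 is the kinesin of centralspindlin, which is needed for cytokinesis. Its 42-nt exon 8 (chr15:69425282-69425323) was skipped at 56.1%, 55.8% and 47.3% in wildtype, 58.8%, 61.2% and 62.1% and 53.1%, 56.8% and 57.1% after knockdown without MYCN, 69.2%, 69.8% and 70.5% in MYCN+/SNRPD3+, and 76.8%, 74.3% and 85.7% and 73.5%, 78.3% and 79.6% after knockdown with MYCN. MYCN+ libraries were all above MYCN- libraries, and the knockdown libraries with MYCN were above those with MYCN alone. The log2 odds difference against wildtype was 1.63 ± 0.23 (SE) (adjusted p = 0.00575); that for knockdown with MYCN expressed did not pass (adjusted p = 0.269).

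A 39-nt exon of SPAG9, a scaffold of JNK signalling that also links cargo to motors, was skipped at 26.5%, 28.3% and 28.2% in wildtype, 38.3%, 45.8% and 48.6% with MYCN and 47.7%, 57.7% and 65.2% (siRNA #1) and 40.7%, 50.9% and 51.98% (siRNA #2) with MYCN and knockdown (adjusted p = 0.00772). With MYCN repressed, knockdown left it at 25.5% to 32.96%. Exon 71 of DMD (39 nt), which encodes dystrophin, was skipped at 6.89%, 8.49% and 7.61% in wildtype, 12.98%, 17.4% and 22.9% in MYCN+/SNRPD3+, and 25.8%, 36.4% and 33.03% and 19.1%, 19.2% and 40.4% in MYCN+/SNRPD3- (adjusted p = 0.00841). Its knockdown libraries without MYCN ranged from 7.27% to 17.2%, so they overlapped both wildtype and MYCN+/SNRPD3+.

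Trafficking proteins were among them. The 39-nt exon 13 of SEC31A, part of the outer coat of COPII vesicles, belonged to a pair of trios with different skipping introns. In the one with the smaller share it was skipped at 7.08%, 6.04% and 8.30% in wildtype, 14.3%, 18.8% and 14.6% in MYCN+/SNRPD3+, and 18.9%, 19.7% and 22.5% and 17.4%, 16.9% and 24.3% in MYCN+/SNRPD3- (adjusted p = 0.00772); the other went from 60.4% ± 1.81 (SD) to 74.7% ± 3.24 (SD) (adjusted p = 0.0105). All MYCN+ libraries were above all MYCN- libraries in both trios. Exon 8 of APP (57 nt), the amyloid precursor protein, also had a pair of trios. When skipped together with exon 7 its share was 13.9%, 13.6% and 14.2% in wildtype, 20.8%, 22.8% and 20.1% in MYCN+/SNRPD3+, and 24.8%, 26.1% and 31.7% and 22.8%, 23.5% and 28.7% in MYCN+/SNRPD3- (adjusted p = 0.00841). When skipped with exon 7 kept it went from 37.2% ± 0.411 (SD) in wildtype to 43.6% ± 2.80 (SD) in MYCN+/SNRPD3+ and 48.4% ± 3.52 (SD) in MYCN+/SNRPD3- (adjusted p = 0.0398), the MYCN+ and MYCN- libraries overlapped, and the call was lost without 12 of the 18 libraries one at a time (highest adjusted p = 0.118).

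IFT122 is a subunit of the complex that returns cargo from the tip of the cilium. Its exon 7 (147 nt) was skipped at 5.27% ± 2.47 (SD) in wildtype, 18.3% ± 0.691 (SD) in MYCN+/SNRPD3+ and 21.1% ± 4.56 (SD) in MYCN+/SNRPD3- (adjusted p = 0.00494). Knockdown without MYCN also had higher values, 14.99% ± 3.03 (SD) and 9.45% ± 1.21 (SD).

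CD46 protects cells from complement, and 3 of its exons were called with more skipping. Those whose calls held whichever library was left out are adjacent exons of 45 and 42 nt (exons 7 and 8), with the highest group means where MYCN and knockdown came together. Exon 7 was skipped at 3.41%, 5.48% and 4.27% in wildtype, 7.35%, 9.64% and 7.24% in MYCN+/SNRPD3+, 7.996%, 6.65% and 10.3% and 6.17%, 11.2% and 8.99% after knockdown without MYCN, and 22.8%, 24.2% and 41.95% and 16.995%, 18.3% and 41.6% after knockdown with MYCN. All 6 of the last were above all other 12, and library 3 of each siRNA was far above its partners. The log2 odds difference against wildtype was 2.75 ± 0.39 (SE) (adjusted p = 0.00611), and that of knockdown with MYCN expressed was 1.93 ± 0.39 (SE) (adjusted p = 0.0911). The interaction had an adjusted p of 1.00. Exon 8 went from 1.83% ± 0.193 (SD) to 9.72% ± 4.25 (SD) (adjusted p = 0.00847). Both of these trios have the same skipping intron, which leaves out both exons. With exon 8 kept, exon 7 had 42.9% ± 3.72 (SD) in wildtype and 57.8% ± 5.07 (SD) in MYCN+/SNRPD3- (adjusted p = 0.0358), and with exon 7 kept, exon 8 had 1.24% ± 0.0275 (SD) in wildtype and 2.10% ± 0.780 (SD) in MYCN+/SNRPD3- (adjusted p = 0.311). Exon 12 (93 nt, partly coding) had 45.1% ± 2.07 (SD) in wildtype, 51.1% ± 2.05 (SD) in MYCN+/SNRPD3+, and 60.6% ± 6.39 (SD) and 58.4% ± 5.55 (SD) in MYCN+/SNRPD3- (adjusted p = 0.0356). It and exon 7 with exon 8 kept were not among the 38.

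A 132-nt exon of IRF3, a transcription factor of the interferon response, was skipped at 2.29%, 2.15% and 2.80% in wildtype, 2.496%, 5.01% and 3.86% in MYCN+/SNRPD3+, and 14.9%, 13.1% and 14.3% and 7.92%, 14.4% and 15.4% in MYCN+/SNRPD3- (adjusted p = 0.00772). Its knockdown libraries without MYCN ranged from 3.08% to 10.8%, which reached into the range with MYCN and knockdown. For knockdown with MYCN expressed the adjusted p was 0.0893.

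Some of the 38 were rarely skipped in wildtype. Exon 7 of B4GALNT1 (99 nt), the enzyme that makes the gangliosides GM2 and GD2, was skipped at 1.13%, 1.42% and 1.03% in wildtype and 2.25%, 2.62% and 3.55% in MYCN+/SNRPD3+, and at 5.72%, 3.44% and 5.31% and 3.62%, 4.38% and 4.86% in MYCN+/SNRPD3- (adjusted p = 0.00611). Exon 22 of PPP1R12A (105 nt), which targets myosin phosphatase, went from 1.73%, 0.756% and 0.841% to 7.42%, 3.87% and 5.83% and 4.87%, 3.56% and 4.01% (adjusted p = 0.00772). It had the smallest adjusted p of these exons for knockdown over both MYCN states, 0.0503, just above the threshold of 0.05.

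Exon 12 of the transcription factor STAT5B (93 nt) rose from 1.34% ± 0.273 (SD) to 5.59% ± 0.760 (SD), exon 12 of the chromatin remodeller CHD1L (111 nt) from 1.05% ± 0.477 (SD) to 6.25% ± 2.53 (SD), and exon 35 of LRPPRC (75 nt), which binds mitochondrial mRNA, from 3.99% ± 0.580 (SD) to 10.7% ± 2.11 (SD). Exon 8 of the RNA phosphatase DUSP11 (177 nt) was skipped at 0.0148%, 0.00956% and 1.18% in wildtype and at 3.03%, 2.27% and 4.69% and 3.68%, 2.72% and 3.75% in MYCN+/SNRPD3-. Adjusted p-values against wildtype were 0.00973, 0.00799, 0.00772 and 0.00772 in that order.

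ANKRD10 and ENTREP3 were also among the 38 and were named by the rule for the largest differences. In ANKRD10 a 285-nt stretch that matches no annotated exon was skipped at 29.7%, 25.1% and 20.3% in wildtype, 39.6%, 44.5% and 53.05% in MYCN+/SNRPD3+, and 62.7%, 60.6% and 86.8% and 74.3%, 61.2% and 84.004% in MYCN+/SNRPD3- (adjusted p = 0.00772). Exon 2 of ENTREP3 (57 nt) was skipped at 5.48%, 0.357% and 7.74% in wildtype against 42.9%, 42.5% and 13.8% in MYCN+/SNRPD3+, and 34.2%, 47.9% and 46.1% and 31.3%, 51.8% and 62.2% in MYCN+/SNRPD3- (adjusted p = 0.00938). The MYCN+/SNRPD3+ libraries were far apart, and its knockdown libraries without MYCN ran from 11.1% to 43.5%, all above wildtype.

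**Figure D3:**
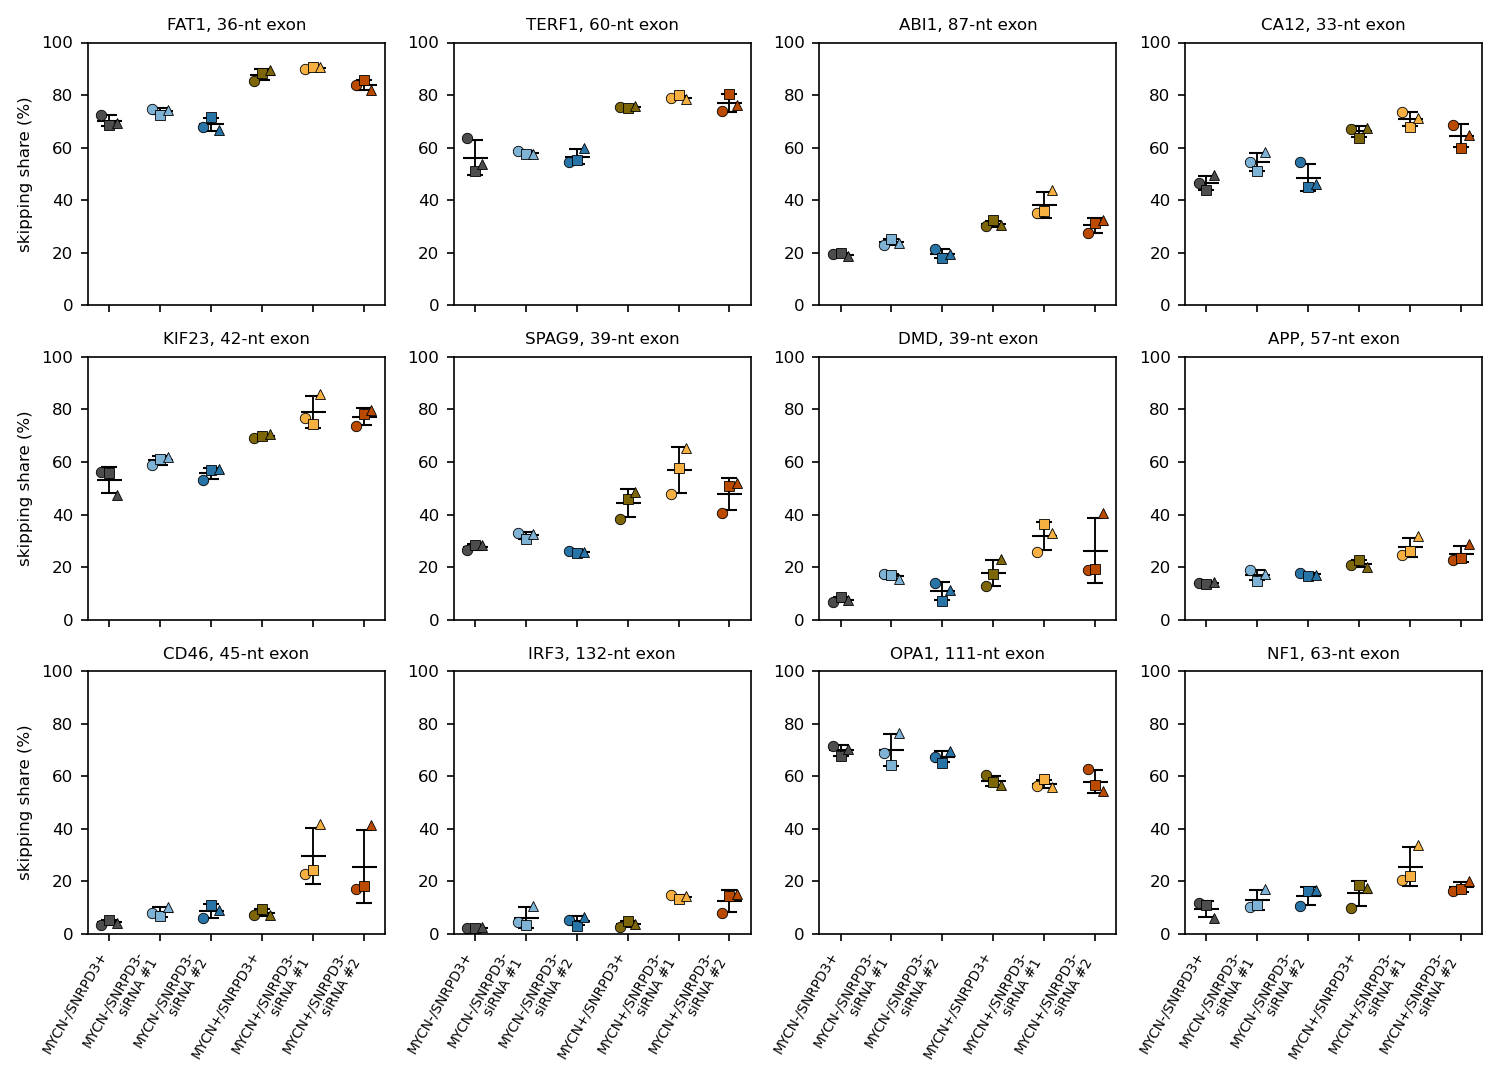
Skipping share (%) in each library (circle, square and triangle for libraries 1, 2 and 3) of 12 exons, with the group mean and SD (bars, n = 3). FAT1, TERF1, ABI1 and CA12 separate by MYCN, CD46 is highest in MYCN+/SNRPD3-, and OPA1 is lower in all MYCN+ groups.

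Counted over all exons tested, 60 (0.895%) had all 9 MYCN+ libraries above all 9 MYCN- libraries, against 0.496% of all trios and 0.449% of the frame-shifting ones, and 10 (0.149%) had all of them below, against 0.113% of all trios. For knockdown, all 6 knockdown libraries were above the 3 controls in 506 exons (7.55%, against 6.87% of all trios) with MYCN expressed and in 285 (4.25%, against 3.72%) with MYCN repressed. They were all below in 37 exons (0.552%) with MYCN expressed and again in 37 with MYCN repressed, against 0.599% and 0.613% of all trios. The knockdown differences in both MYCN states share no library. Across the 6702 exons their Pearson r was 0.146 and Spearman's rho 0.265, while 52.5% were higher in both and 12.4% lower in both. Taken alone, 66.2% were higher with MYCN repressed and 73.9% with MYCN expressed, so many would be higher in both without any link.

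Less skipping was rare. In OPA1 and CALD1 all MYCN+ libraries lay below all MYCN- libraries, but neither was called for MYCN alone. OPA1 drives fusion of the inner mitochondrial membrane. Its 111-nt exon 7 was skipped at 71.3%, 67.7% and 70.4% in wildtype, 68.97%, 64.3% and 76.6% and 67.5%, 65.2% and 69.6% after knockdown without MYCN, 60.3%, 57.7% and 56.8% in MYCN+/SNRPD3+, and 56.4%, 58.9% and 55.9% and 62.8%, 56.5% and 54.5% after knockdown with MYCN. All 9 MYCN+ libraries were below all 9 MYCN- libraries. Against wildtype the log2 odds difference was -0.76 ± 0.20 (SE) (adjusted p = 0.0445), a call lost without 15 of the 18 libraries one at a time (highest adjusted p = 0.141, without wildtype library 1), so it sits at the threshold.

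In CALD1, the actin-binding caldesmon, a 78-nt exon was mostly left out, at 93.7%, 95.5% and 94.7% in wildtype, 90.5%, 91.6% and 91.7% in MYCN+/SNRPD3+, and 91.2%, 91.6% and 92.1% and 90.3%, 91.1% and 91.9% in MYCN+/SNRPD3- (adjusted p = 0.0409). Again MYCN+ libraries were all below MYCN- libraries, and the call was lost without 14 of the 18 libraries (highest adjusted p = 0.161). Exon 5 of TANC2 (111 nt), a scaffold protein of synapses, fell from 94.2% ± 4.34 (SD) in wildtype to 82.8% ± 4.24 (SD) (adjusted p = 0.0247), with 79.2% ± 5.97 (SD) in MYCN+/SNRPD3+; 1 MYCN+/SNRPD3- library overlapped the wildtype range. That call was lost without wildtype library 1 or 2 or library 3 of siRNA #2, with adjusted p up to 0.105.

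Other exons named by the rule for less skipping were wider apart, closer to 0% or closer to the threshold. An untranslated 174-nt exon of SPDL1, a recruiter of dynein to kinetochores, was skipped at 87.6%, 90.4% and 86.8% in wildtype and at 80.01%, 81.5% and 79.9% and 79.5%, 80.9% and 67.1% in MYCN+/SNRPD3- (adjusted p = 0.0372). INPP5K, a phosphoinositide phosphatase, had 96.4%, 95.3% and 99.8% against 66.2% to 82.7% (adjusted p = 0.0225), in an untranslated exon whose other trio did not pass (adjusted p = 0.137). In CFAP69, a protein of cilia and flagella, exon 20 had 43.3%, 34.5% and 64.9% in wildtype and 12.5% to 38.2% in MYCN+/SNRPD3- (adjusted p = 0.0434), so the groups overlapped.

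DTX2, a ubiquitin ligase, had 46.3%, 21.8% and 19.2% against 0.429% to 1.09% in an untranslated exon (adjusted p = 0.0392). Neither of the exon's other trios passed, and their means did not fall. They went from 18.1% ± 15.3 (SD) and 22.4% ± 24.0 (SD) in wildtype to 35.0% ± 14.4 (SD) and 24.1% ± 29.3 (SD) in MYCN+/SNRPD3-. LY96, the partner of the receptor TLR4, had 12.5%, 25.2% and 13.5% against 25.1%, 0.270% and 0.338% with siRNA #1 and 0.335%, 0.314% and 0.271% with siRNA #2 (adjusted p = 0.0449), so 1 library lay within the wildtype range. Leaving out 1 library at a time ended the call in 6 of 18 cases for SPDL1, 3 for INPP5K, 15 for CFAP69, 11 for DTX2 and 16 for LY96, each wildtype library among them.

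Several of the exons with the largest gains in skipping, named by the same rule, had scattered wildtype values. The 69-nt exon 8 of ATAT1, the tubulin acetyltransferase, had 35.6%, 45.2% and 1.13% in wildtype and 76.7%, 85.4% and 88.5% and 60.8%, 66.6% and 89.8% in MYCN+/SNRPD3- (adjusted p = 0.0262). Exon 9 of the Mediator subunit MED16 (207 nt) had 0.465%, 12.4% and 0.853% in wildtype against 50.99%, 78.6% and 46.6% in MYCN+/SNRPD3+ and 31.2% to 83.8% in MYCN+/SNRPD3- (adjusted p = 0.00966). For exon 17 of the nuclear body protein SP110 (72 nt) the wildtype values were 29.3%, 0.797% and 17.2% and those of MYCN+/SNRPD3- ran from 37.5% to 75.3% (adjusted p = 0.0212). These groups did not overlap, but wildtype spanned over 10 percentage points in each.

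ZBTB7C, a zinc finger protein, had an untranslated exon at 69.5%, 6.80% and 50.9% in wildtype and 70.2% to 99.7% in MYCN+/SNRPD3- (adjusted p = 0.0161); the exon's other trio did not pass (adjusted p = 0.265). The mitochondrial carrier SLC25A29 had a 72-nt exon, found only in transcripts that code for no protein, at 64.6%, 48.4% and 34.9% against 76.1% to 97.6% (adjusted p = 0.0159). EXO1, a nuclease of mismatch repair, was tighter, with a 108-nt untranslated exon at 32.03%, 31.8% and 32.1% in wildtype, 49.02%, 43.8% and 44.5% in MYCN+/SNRPD3+, and 61.5%, 55.99% and 77.7% and 60.8%, 56.1% and 72.3% in MYCN+/SNRPD3- (adjusted p = 0.0138). All 6 MYCN+/SNRPD3- libraries were above all 6 libraries with SNRPD3. Calls were lost without wildtype library 3 for ATAT1, MED16, SP110, SLC25A29 and EXO1, without wildtype library 2 for SP110, ZBTB7C, SLC25A29 and EXO1, and without MYCN+/SNRPD3- library 3 of either siRNA for ATAT1, with adjusted p from 0.0512 to 0.0693 at the highest.

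Textbook in-frame cassettes, a list of genes known for such exons, had 86 trios tested in 31 genes. More skipping was called in 12 (13.95%) and less in 1, against 4.74% and 0.29% of all trios, and the median difference was 2.21 percentage points against 1.56. The 13 trios came from 6 genes and several share an exon or a splice site, so they are not independent. Without library 3 of both MYCN+/SNRPD3- groups 1 call was left, where 64 of all 395 calls were kept. One exon per gene, chosen by the rule and shown in the plot of textbook exons, gave 3 calls, in CALD1, MYL6 and NF1.

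MYL6 is the essential light chain of smooth-muscle and non-muscle myosin. Its 45-nt exon 6, the alternative exon at the end of the protein, had 55.4%, 52.6% and 58.2% in wildtype, 71.5%, 68.2% and 65.7% in MYCN+/SNRPD3+, and 70.9%, 73.7% and 71.5% and 69.3%, 70.3% and 72.4% in MYCN+/SNRPD3- (adjusted p = 0.0165), with 51.8% to 64.6% after knockdown without MYCN. All 9 MYCN+ libraries were above all 9 MYCN- libraries. Exon 3 of MYL6 (144 nt) was rarely skipped, at 2.46% ± 0.194 (SD) and 4.89% ± 0.528 (SD) (adjusted p = 0.0315).

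The 63-nt exon of NF1 inserted in its Ras-GAP domain (exon 31) was skipped at 11.6%, 10.9% and 6.11% in wildtype, 9.96%, 18.8% and 17.6% in MYCN+/SNRPD3+, and 20.7%, 22.2% and 34.02% and 16.3%, 17.2% and 20.02% in MYCN+/SNRPD3- (log2 odds difference 1.32 ± 0.33 (SE), adjusted p = 0.0361). Exon 7 of APP (168 nt), which encodes the Kunitz protease inhibitor domain, went from 6.17% ± 0.403 (SD) to 10.7% ± 0.743 (SD) (adjusted p = 0.0263). In that trio the skipping intron leaves out exon 8 too, and it is the same intron as in the exon 8 trio skipped together with exon 7. With exon 8 kept, exon 7 had 0.614% ± 0.0658 (SD) in wildtype and 0.797% ± 0.153 (SD) in MYCN+/SNRPD3-, and was not tested. Exon 18 of PICALM (60 nt), a clathrin adaptor, went from 7.54% ± 0.918 (SD) to 14.4% ± 2.498 (SD) (adjusted p = 0.0159). Leaving out each wildtype library in turn ended the call of NF1, MYL6 exon 3 and APP exon 7, while that of MYL6 exon 6 was lost without wildtype library 1 or 2 and that of PICALM exon 18 without 1 or 3. Adjusted p then reached 0.149 for NF1 without wildtype library 3; NF1 also lost its call without library 1 or 3 of siRNA #2 or library 3 of siRNA #1, APP exon 7 without library 3 of siRNA #2, and MYL6 exon 3 without library 1 or 3 of either siRNA.

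Other well-known cassettes did not pass. Exon 11 of INSR (36 nt), which separates both forms of the insulin receptor, was skipped at 30.2%, 42.04% and 47.98% in wildtype, 76.5%, 75.4% and 63.8% in MYCN+/SNRPD3+, and 77.9%, 74.3% and 84.3% and 59.3%, 84.2% and 50.8% in MYCN+/SNRPD3- (adjusted p = 0.0821). MACF1, a spectraplakin, had a 63-nt exon at 6.68% ± 2.49 (SD) and 16.6% ± 5.34 (SD) (adjusted p = 0.0590), and NUMB, an inhibitor of Notch, a 75-nt exon at 1.51% ± 0.431 (SD) and 3.71% ± 0.992 (SD) (adjusted p = 0.0705). The cell-surface receptor CD44 left out its 204-nt exon at 96.8% ± 0.242 (SD) and 97.5% ± 0.503 (SD) (adjusted p = 0.268). FN1, encoding fibronectin, had a 267-nt exon at 8.33% ± 0.240 (SD) and 10.5% ± 1.24 (SD) (adjusted p = 0.241), and exon 6 of the death receptor FAS (63 nt) was skipped at 3.47% ± 1.71 (SD) and 5.14% ± 2.10 (SD) (adjusted p = 0.478).

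By function, the exons were read in 8 further lists of genes. Without library 3 of both MYCN+/SNRPD3- groups, 64 of all 395 calls were kept, so low counts under that setting are not particular to a list. Genes of RNA splicing and RNA binding had 15 of 130 tested exons called with more skipping (11.5%, against 4.74% of all trios) and none with less. One of them, picked after its values were seen, was the 33-nt exon 5 of TIA1, a splicing regulator that binds U-rich RNA, at 17.9% ± 0.888 (SD) in wildtype, 27.3% ± 4.73 (SD) in MYCN+/SNRPD3+, and 35.02% ± 11.03 (SD) and 35.6% ± 9.05 (SD) in MYCN+/SNRPD3- (adjusted p = 0.0447). The median difference was 1.87 percentage points against 1.56 over all trios. Without library 3 of both MYCN+/SNRPD3- groups none of the 130 was called. By the rule for naming, which took the smallest p for knockdown over both MYCN states, the list gave PTBP2 and MBNL1, both splicing regulators. A 78-nt exon of PTBP2 was skipped at 3.74% ± 1.54 (SD) in wildtype, 1.02% ± 0.850 (SD) in MYCN+/SNRPD3+ and 8.98% ± 4.64 (SD) in MYCN+/SNRPD3- (adjusted p = 0.203). A 36-nt exon of MBNL1 was skipped at 21.04% ± 2.61 (SD) in wildtype and, in MYCN+ cells, at 17.3% ± 3.42 (SD) with siRNA #1 and 31.5% ± 7.57 (SD) with siRNA #2 against 12.5% ± 1.65 (SD) without knockdown (adjusted p for knockdown over both states = 0.0692).

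Cytoskeleton, adhesion and polarity genes had 21 of 218 exons with more skipping (9.63%, against 4.74% of all trios) and 1 with less (0.29% of all trios), and 6 and 0 without both libraries numbered 3; the median difference was 1.67 percentage points, against 1.56 over all trios. Named by the rule, PARD3, a polarity scaffold, had a 45-nt exon at 14.1% ± 1.64 (SD) in wildtype and 12.1% ± 5.05 (SD) in MYCN+/SNRPD3- but 5.45% ± 1.56 (SD) in MYCN+/SNRPD3+ (adjusted p against wildtype = 0.577). A 147-nt exon of NUMB had 2.04% ± 0.699 (SD) and 4.97% ± 1.52 (SD) (adjusted p = 0.0597). Cell cycle and mitosis genes had 14 of 228 (6.14%, against the same 4.74%) with more skipping, 4 without both libraries numbered 3, and a median of 1.32. TACC2, a protein of centrosomal microtubules, had a 36-nt exon at 93.8%, 92.4% and 89.2% in wildtype against 98.2% to 99.3% in MYCN+/SNRPD3- (adjusted p = 0.0117). The cyclin CCNQ had exon 4 (228 nt) at 0.0297% in wildtype on average and at 1.86% to 4.79% in MYCN+/SNRPD3- (adjusted p = 0.0128). Both calls were lost without wildtype library 3 (adjusted p of 0.0566 and 0.0512).

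DNA repair genes had 7 of 93 exons called with more skipping (7.53%, 3 without both libraries numbered 3), EXO1 among them, and membrane trafficking genes 21 of 286 (7.34%, 5 without both libraries numbered 3), against 4.74% of all trios. Their medians were 1.05 and 1.51 percentage points, against 1.56. RAB5IF, a small membrane protein, had a 111-nt exon outside protein-coding transcripts at 38.2%, 50.3% and 36.7% in wildtype and 58.4% to 73.8% in MYCN+/SNRPD3- (adjusted p = 0.00977), and exon 84 of DYNC2H1 (210 nt), the dynein of cilia, was skipped at 3.08% ± 0.922 (SD) and 8.31% ± 1.93 (SD) (adjusted p = 0.0170). The first call was lost without wildtype library 3 (adjusted p = 0.0523) and the second without wildtype library 2 or 3 (up to 0.0720).

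Chromatin and transcription genes had 11 of 265 (4.15%, 2 without both libraries numbered 3) and so stood close to the 4.74% of all trios, with a median of 1.39. In KMT2B, a histone H3 methyltransferase, exon 29 (90 nt) was skipped at 3.04%, 2.06% and 3.92% in wildtype, 8.21%, 3.25% and 5.77% in MYCN+/SNRPD3+, and 22.1%, 14.4% and 24.4% and 11.9%, 8.85% and 17.2% in MYCN+/SNRPD3- (adjusted p = 0.0131, and 0.0571 without wildtype library 2). BAZ1A, a chromatin remodelling subunit, had exon 13 (96 nt) at 23.9% ± 2.03 (SD) and 36.6% ± 2.13 (SD) (adjusted p = 0.0214, up to 0.0821 without a wildtype library). Kinase and phosphatase genes had 10 of 207 (4.83%) with more skipping and 1 with less, and a median of 1.35. PTPN2, named by the rule, went from 3.17% ± 0.758 (SD) to 5.87% ± 1.78 (SD) without passing (adjusted p = 0.0729). In that list 1 call was left without both libraries numbered 3.

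Apoptosis genes had 5 of 43 called with more skipping (11.6%, against 4.74% of all trios) and a median of 1.66 against 1.56. None of the 43 was called without both libraries numbered 3, a setting that kept 64 of all 395 calls. MDM4, an inhibitor of p53, had a 39-nt exon at 42.9%, 40.6% and 48.6% in wildtype, 44.2%, 49.6% and 43.2% in MYCN+/SNRPD3+, and 65.1%, 62.4% and 77.3% and 51.9%, 61.2% and 67.8% in MYCN+/SNRPD3- (adjusted p = 0.0301). It lost the call without any of the wildtype libraries or library 3 of either siRNA (up to 0.110). BCL2L13, of the BCL2 family, had a 144-nt exon at 5.79% ± 0.607 (SD) and 8.05% ± 0.886 (SD) (adjusted p = 0.164). Less skipping was called in none of the exons of 6 of the 8 lists. It was called in 0.29% of all trios, a share at which lists of this size would hold few or none. Why MYCN+/SNRPD3- library 3 of both siRNAs had the highest mean shares was not tested.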

How the data were processed

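RNA-seq libraries were made with a stranded mRNA kit from total RNA. Per the submitters' processing notes, reads were aligned to hg38 with STAR 2.5.0a and handled with SAMtools 1.3.1, and the methods name leafcutter with GENCODE 28. The deposited PSI table, made by the authors with leafcutter, gives for each library the fraction of a junction cluster's reads that use each of 233650 introns in 51819 clusters. The second deposited table holds only the authors' own comparisons (p-values and effect sizes) and was not used. Every one of the PSI columns matched a library, and 0 were left unmatched. Read counts behind the fractions are not given, so depth is unknown and no counting interval was made.

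Introns were matched to GENCODE 44 (hg38). Shares were turned into log2((share + 0.01)/(1 - share + 0.01)), trios with a mean share from 0.01 to 0.99 were kept, and limma 3.58.1 (R 4.3.3, 12 residual and 1.69 prior degrees of freedom) fitted the 6 group means to all 30036 trios. P-values were two-sided and Benjamini-Hochberg adjusted over all of them for each comparison, with a threshold of 0.05. Both siRNAs were averaged. Trios can share introns, so they are not independent. The labels number the replicates but do not say that they were separate cultures, so p-values measure the spread between these libraries, which may be technical. Tested on simulated data for knockdown with MYCN expressed (30036 trios, 200 shifted), the fit recovered 0% of shifts of 1 log2 odds, 35% of 2 and 77% of 4, with 0, 8 and 8 false calls. The simulation shuffled the deviations of each trio separately, so it held no shift shared by the trios of a library. Few trios were shifted, so these rates may not hold for the data. Python 3.11.15, numpy 2.4.6, pandas 2.3.3, scipy 1.17.1, pysam 0.24.0 and matplotlib 3.10.9 were used.

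The exons and gene lists were chosen with earlier results of these data known. Exons were named by 3 rules: the largest called differences per comparison, 1 exon for each textbook gene, and the 2 smallest p-values for knockdown in each other list. The 38 calls kept without any 1 library, the other called exons of textbook genes and TIA1 were named after their values were seen. Some exons that these rules name are not reported here. Alternatives were the offset, the filter, repeated values, the replicate block, the libraries fitted, the skipping intron's own PSI, limma's options, a minimum difference, a stricter threshold and each library left out.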

Additional observations from a re-analysis of the deposited data

How the results depend on the processing

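For MYCN+/SNRPD3- against wildtype, more skipping outnumbered less under each alternative, but the count of 395 moved: to 20 with only the groups compared, 136 with the skipping intron's own PSI, 39 at an adjusted p under 0.01, 71 to 413 with 1 library left out, 71 with both MYCN+/SNRPD3- libraries numbered 3 left out, 257 with siRNA #1 alone and 48 with siRNA #2 alone. Leaving out both libraries numbered 3 and using a single siRNA were chosen after seeing the data. For MYCN alone, the 1 call became 2 with an offset of 0.05, 3 with the skipping intron's PSI, 0 at an adjusted p under 0.01, 0 to 3 with 1 library left out, and 14 with only the groups compared, where 10 of the 14 had less skipping, so the balance turned. Knockdown with MYCN repressed went from 0 to 1 with only the groups compared and to 0 to 1 with 1 library left out. Knockdown with MYCN expressed went from 0 to 1 with an offset of 0.05, with only the groups compared (less skipping) or without both libraries numbered 3, to 2 with no filter or with 18 different values, and to 0 to 6 with 1 library left out. Knockdown over both MYCN states went from 0 to 2 with an offset of 0.001 or with 18 different values, and to 0 to 3 with 1 library left out. The interaction ran from 0 to 1 with 1 library left out. The difference in mean share of 2.49 percentage points was 5.23 for the median, 3.90 for exons with a mean share from 0.05 to 0.95, and 2.13 to 2.69 with 1 library left out. The cause was not tested for any of these.

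The replicate block gave 558 calls for MYCN+/SNRPD3- against wildtype (381 of them shared with the 395), 12 for knockdown with MYCN expressed, 55 for knockdown over both MYCN states, 1 for MYCN alone and 0 for the other comparisons. The labels give libraries of different groups only a common number. The mean correlation of the deviations of same-numbered libraries was 0.0128 (from -0.0773 to 0.0855, 45 pairs), against -0.00638 for different numbers. Whether libraries with the same number form a batch was not tested. Over the 105 named exons and comparisons, 2783 of 3115 alternatives kept direction and side of the threshold, 327 kept the direction but no longer passed, 5 newly passed and 0 turned. Unknown depth limits every share, most of all those near 0% or 100%.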
